A study of Rattus norvegicus with 9 samples.

Results

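The rat major histocompatibility complex, RT1, and the genes that prepare peptides for it were represented by 45 genes with 63 of the 41012 non-control probes on the arrays. They were taken by name: every probe whose gene name starts with RT1-, and every probe of Psmb8, Psmb9, Psmb10, Psme1, Psme2, Tap1, Tap2, Tapbp, B2m, Cd74 and Ciita. Nlrc5 was also sought and had no probe under that name. The RT1 names gave 49 probes of 34 genes, of which 36 probes of 26 genes are class I and other RT1 genes and 13 probes of 8 genes are class II. The other 11 genes gave 14 probes. More than 1 probe was present for 13 genes, and probes of 1 gene are reported separately.

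The cells were pulmonary arterial smooth muscle cells (PASMCs) of male Sprague Dawley rats at culture generation 4. Samples fell into 3 groups of 3, each on 1-colour Agilent whole-genome rat arrays: hypoxia with the flavonol quercetin, hypoxia alone, and normoxia. Per the labels, hypoxia was 1% oxygen with 5% carbon dioxide in a sealed chamber, and normoxic cells stayed in an incubator at 37 °C. All cultures first spent 24 h without serum and were then kept for 24 h in medium with 10% serum, containing quercetin or its vehicle, 0.1% DMSO. No dose of quercetin is stated in the labels. Nor do they say that samples of a group came from separate cultures or animals, so a p-value reflects sample-to-sample spread that may be technical.

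Class I molecules carry peptides of cytosolic proteins to the cell surface, where CD8 T cells and natural killer cells read them. The heavy chain, encoded by RT1 genes, pairs with the light chain beta-2 microglobulin (B2m). Its peptides are cut by the proteasome, moved into the endoplasmic reticulum by the Tap1-Tap2 transporter and loaded with the help of tapasin (Tapbp). Class II molecules, alpha and beta chains guided by the invariant chain Cd74, present peptides from endosomes to CD4 T cells and depend on the transactivator Ciita. Class II is best known from professional antigen-presenting cells, and interferon gamma can induce it in other cells.

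Levels are log2 signals relative to the 75th percentile of the array, called log2 scaled signal below, and a change is a difference of group means on that scale. The 75th percentile of the spot signal was 450 to 504 in hypoxia with quercetin, 439 to 462 in hypoxia and 627 to 640 in normoxia. Probes were fitted if all 3 arrays of any group measured them well above background, which held for 26656 probes in all and for 50 of the 63. Of the 13 others, 7 were above background on no array, and RT1-A3, on 6 of 9 arrays, was detected most often. A probe was called at a Benjamini-Hochberg adjusted p under 0.05 in limma, adjusted over all fitted probes. Normoxia replicates 1 and 2 shared slide 1 and scan day 1, while normoxia replicate 3 and the 3 hypoxia arrays shared slide 2 and the quercetin arrays had slide 3, both scanned on day 2. Quercetin and slide 3 therefore cannot be told apart, in the comparison with hypoxia or in that with normoxia. Normoxia replicate 2 stood apart for class I genes, as given below. Of the smooth muscle marker genes sought, 7 had a probe and all were above background on all 9 arrays. No probe bore the name Acta2.

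Class I probes can share sequence, because the genes are close paralogs. Of the 36 probes, 9 shared at least 20 bases in a row with a probe of another listed gene, against 0 of 13 class II probes and 0 of 14 probes outside RT1. Probes were compared with each other and not with the transcripts of other genes. A probe without such a run may therefore still detect a paralog. The sequences below carry class I, class II and proteasome results and let a reader see where probes of related genes share bases. Each pair is printed 5′ to 3′ as on the array, with the longest run that the pair shares in capitals. The first pair shares 29 bases and the second 27.
RT1-CE2 probe A_44_P107372: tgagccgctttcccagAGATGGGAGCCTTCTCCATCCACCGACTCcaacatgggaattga
RT1-A2 probe A_44_P184753: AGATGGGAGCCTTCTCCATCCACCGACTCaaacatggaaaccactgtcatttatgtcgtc
RT1-CE12 probe A_44_P313661: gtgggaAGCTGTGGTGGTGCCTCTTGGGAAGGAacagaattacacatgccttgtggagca
RT1-CE1 probe A_44_P513029: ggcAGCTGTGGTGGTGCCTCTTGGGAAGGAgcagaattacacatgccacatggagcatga

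The next pairs share 16 and 15 bases. Both RT1-T18 probes are among them, since they changed by unequal amounts.
RT1-M6-2 probe A_44_P309052: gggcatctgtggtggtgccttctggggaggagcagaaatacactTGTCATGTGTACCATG
RT1-T18 probe A_44_P358361: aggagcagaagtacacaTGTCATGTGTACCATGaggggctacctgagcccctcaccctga
RT1-CE7 probe A_42_P511265: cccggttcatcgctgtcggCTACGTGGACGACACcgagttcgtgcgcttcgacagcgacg
RT1-T18 probe A_44_P358358: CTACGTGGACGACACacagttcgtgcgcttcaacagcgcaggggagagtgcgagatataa

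For class II beta chains, the fitted probes of RT1-Db2 and RT1-Bb share 14 bases. The probe of the proteasome subunit Psmb9 is shown last and shares no run of 20 bases with a probe of another listed gene.
RT1-Db2 probe A_44_P210921: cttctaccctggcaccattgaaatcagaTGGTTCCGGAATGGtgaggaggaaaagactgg
RT1-Bb probe A_44_P500803: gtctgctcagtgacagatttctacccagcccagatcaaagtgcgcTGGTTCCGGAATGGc
Psmb9 probe A_44_P301963: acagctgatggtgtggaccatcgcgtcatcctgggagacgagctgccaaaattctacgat
By the files, which use build rn4, 43 of the 63 probes lie on chromosome 20, 2 on an unplaced part of it, and 9 are unmapped. The RT1-A2 probe printed above spans chr20:5024064-5024217 on the plus strand, and the Psmb9 probe lies at chr20:4806341-4806400 on the plus strand.

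The first comparison asks what hypoxia did. Class I heavy chain probes were higher in hypoxia than in normoxia almost throughout, while all 4 probes of their light chain B2m were lower. Of the 50 fitted probes, 38 were higher and 10 lower in hypoxia, or 76% and 20%, where 34.6% of all fitted probes were higher and 29.7% lower and 64.3% were called in either direction. The median change was 1.12, against 0.09 over all fitted probes. Tap2 and Psme2 were the 2 probes not called. The arrays of the groups did not overlap for these 48 probes, nor for 71.8% of all fitted probes. In bulk samples, a different share of a cell type and a different amount of RNA per cell cannot be told apart.

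Among the 30 fitted class I and other RT1 probes, 27 probes of 18 genes were higher in hypoxia and 3 were lower, with a median change of 1.42. The 27 rose by 1.74-fold to 5.35-fold, with a median of 2.71-fold and adjusted p from 1.12e-05 to 0.0153. RT1-A2 encodes the classical class I heavy chain. Its probe A_44_P184753 had log2 scaled signals of 4.63, 4.54 and 4.58 in hypoxia, against 2.72, 2.05 and 2.71 in normoxia. The groups did not overlap, and normoxia replicate 2 was the lowest array. The change was 2.09 ± 0.17 (SE, n = 3 each; adjusted p = 2.26e-05).

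The RT1-CE genes form a cluster of class I genes of the RT1-C/E region. RT1-CE2, whose probe shares the 29-base run with RT1-A2, had log2 scaled signals of 4.59, 4.51 and 4.53 in hypoxia, against 2.81, 2.18 and 2.72 in normoxia, a change of 1.97. RT1-CE16 changed by 1.80, with 4.07, 3.99 and 4.03 in hypoxia against 2.40, 1.94 and 2.35 in normoxia. RT1-CE3 changed by 2.01, with 2.75, 2.67 and 2.65 in hypoxia against 0.90, 0.22 and 0.93 in normoxia. In each case every hypoxia array lay above every normoxia array. Since probes of these genes share sequence, their equal direction does not count as separate evidence for each gene.

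The second pair of printed sequences behaved alike. RT1-CE1 had log2 scaled signals of 5.16, 5.06 and 5.15 in hypoxia, against 3.88, 3.38 and 3.81 in normoxia. RT1-CE12 had 4.71, 4.62 and 4.71 in hypoxia, against 3.48, 3.00 and 3.37 in normoxia. Their changes were 1.44 and 1.40. The smallest increases among the RT1-CE genes were RT1-CE10 at 0.80 and RT1-CE5 probe A_42_P511274 at 0.85.

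**Figure D1:**
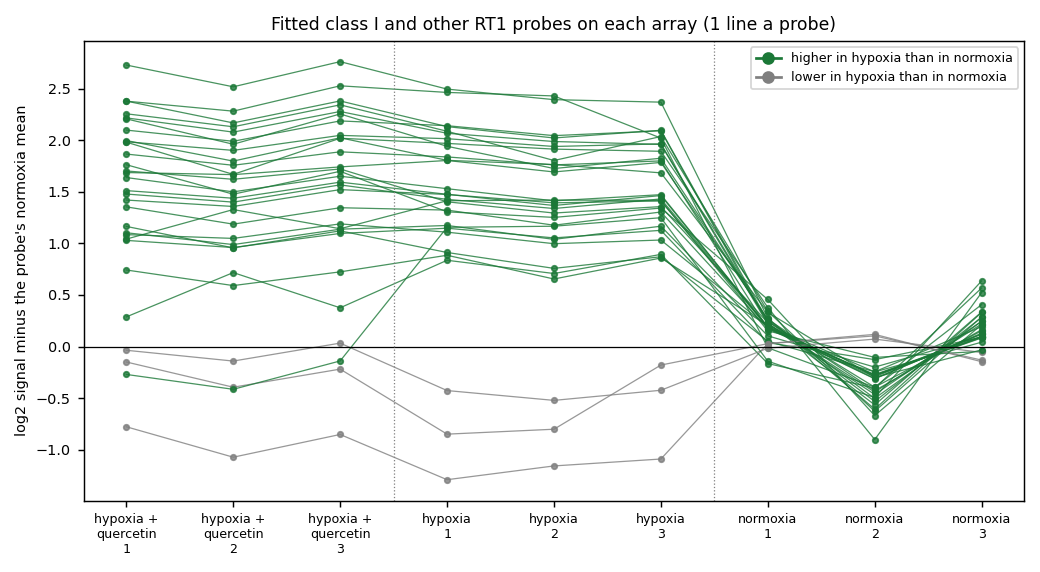
Log2 scaled signal of each of the 30 fitted class I and other RT1 probes on the 9 arrays, minus the mean of that probe over the 3 normoxia arrays; each line is 1 probe, green where it was called higher and grey where it was called lower in hypoxia than in normoxia. The green lines sit together above 0 in hypoxia with quercetin and in hypoxia, except RT1-T24-1 with quercetin, and dip together on normoxia replicate 2.

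The plot of class I probes by array also shows that 1 array moved these probes as a block. Normoxia replicate 2 was the lowest of the 9 arrays for 27 of the 30 class I probes. The median over the 30 probes was 2.37, 2.18 and 2.44 in hypoxia with quercetin, 2.15, 1.90 and 2.07 in hypoxia, and 0.52, -0.08 and 0.49 in normoxia. Without normoxia replicate 2, all 27 increases in hypoxia kept their call, with changes of 0.61 to 2.12 and a median of 1.33. With slide as a block, where normoxia replicate 3 is the array that shares a slide with hypoxia, 24 of the 27 kept it, with a median change of 1.38. The 3 that did not were RT1-M5, RT1-CE6 and RT1-S3 probe A_44_P454420.

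The 3 RT1 probes that were lower in hypoxia belong to nonclassical class I genes. RT1-M3-1 is a rat member of the M3 genes, which in mouse present formylated peptides. It had log2 scaled signals of 1.38, 1.51 and 1.58 in hypoxia, against 2.70, 2.79 and 2.53 in normoxia, a change of -1.18 ± 0.11 (SE, n = 3 each; adjusted p = 4.91e-05). RT1-N1 changed by -0.61 (adjusted p = 0.0160), and this call was lost with slide as a block (adjusted p = 0.236). RT1-N3 changed by -0.46 (adjusted p = 0.00166). RT1-N1 and RT1-N3 lie at chr20:2788721-2788780 and chr20:2810024-2810083, between the probes of RT1-T18 and RT1-S3 on the same strand, which were higher.

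B2m, the light chain shared by all class I molecules, was lower in hypoxia on all 4 of its probes, at the same time as most heavy chain probes were higher. The size depended on the probe. Probe A_44_P214040 had log2 scaled signals of 7.08, 7.05 and 7.15 in hypoxia, against 7.68, 7.81 and 7.49 in normoxia, a change of -0.57 ± 0.10 (SE, n = 3 each; adjusted p = 0.00111). Its overlapping neighbour A_43_P11442, with which it shares 41 bases, changed by -0.62. These probes span chr3:108931019-108932504 and chr3:108931038-108932523, 1486 bases each for a probe of 60, so each aligns with a gap.

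The other B2m probes lie downstream on the same strand, A_44_P122632 at chr3:108933671-108933729 and A_44_P535612 at chr3:108933795-108933854. A_44_P122632 had 2.05, 2.06 and 2.18 in hypoxia, against 3.55, 3.56 and 3.37 in normoxia, a change of -1.40 ± 0.09 (SE, n = 3 each; adjusted p = 6.42e-06). A_44_P535612 changed by -1.32. Within the arrays, A_44_P122632 fell by 0.83 more than A_44_P214040 on the log2 scale (adjusted p = 3.38e-05), and A_44_P535612 fell by 0.75 more (adjusted p = 0.000185). The change of A_43_P11442 differed from that of its neighbour by -0.05 (adjusted p = 0.459).

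**Figure D2:**
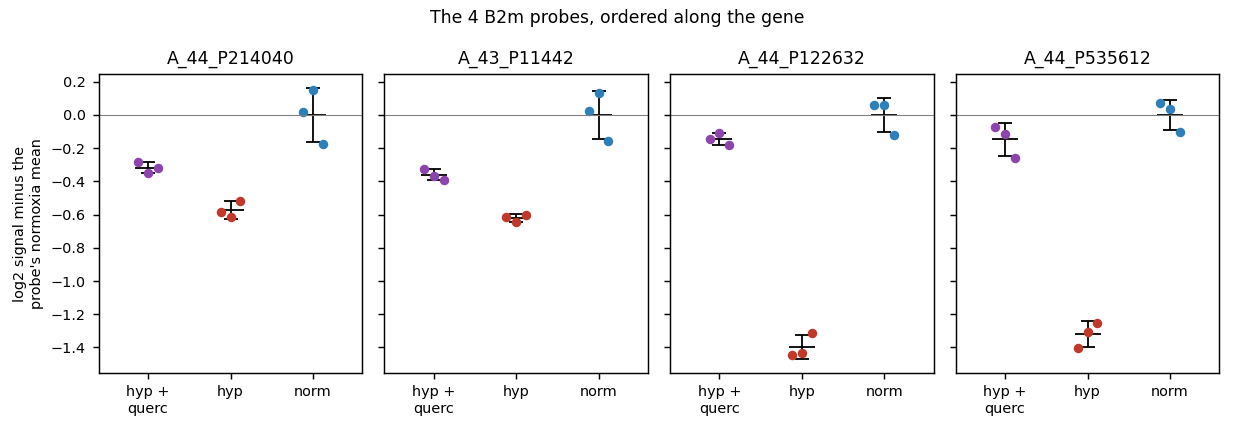
Log2 scaled signal of the 4 B2m probes minus the mean of each probe in normoxia; points are arrays, bars the mean and SD of 3 arrays. In hypoxia the pair on the right, which lies downstream, sits near -1.3 to -1.4, and the pair on the left near -0.6.

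Unequal changes between probes of 1 gene were also found in RT1. In 13 pairs of fitted RT1 and B2m probes, each gene's highest-signal probe was set against another. Of these, 10 differed in their change in hypoxia (adjusted p under 0.05), against 30.5% of all 4552 such pairs on the array. The 10 include the B2m differences of A_44_P122632 and A_44_P535612 given above, and the others are RT1 pairs. Over the 13 pairs the median size of the difference was 0.70, against 0.19 over all pairs. RT1-EC2 had 4 fitted probes with changes of 1.11, 1.42, 2.30 and 2.42. RT1-T18 probe A_44_P358358 rose by 0.70 more than A_44_P358361 (adjusted p = 0.000333). RT1-M6-2 differed in detection: A_44_P309052 was above background on all 9 arrays, and A_44_P426792 on none. With normexp background correction, 6 of the 13 pairs differed.

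The genes that make and load class I peptides did not move as one group in hypoxia. Tapbp, which holds empty class I molecules at the transporter, rose most. It had log2 scaled signals of 2.18, 2.07 and 2.02 in hypoxia, against 0.08, 0.29 and 0.17 in normoxia, a change of 1.91 ± 0.10 (SE, n = 3 each; adjusted p = 4.09e-06). Tap1 had 1.32, 1.19 and 1.14 in hypoxia, against 0.10, -0.28 and 0.28 in normoxia, a change of 1.18 (adjusted p = 0.000157). Its partner Tap2 changed by 0.40, with 1 normoxia array above 1 hypoxia array (adjusted p = 0.0517).

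The inducible catalytic subunits of the proteasome went in different directions. Psmb8 and Psmb9 rose by 0.52 and 0.69, and Psmb10 fell by 0.81, with 3.20, 3.24 and 3.14 in hypoxia against 3.74, 4.53 and 3.73 in normoxia. The Psmb8 and Psmb10 calls were lost with slide as a block (adjusted p = 0.270 and 0.212). Of the proteasome activator, Psme1 fell by 0.33 and Psme2 changed by 0.05 (95% interval -0.24 to 0.35). Psme1 was no longer called with slide as a block (adjusted p = 0.185). With spike-in scaling Psmb8 and Psmb9 were not called, at 0.0023 and 0.18.

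Most class II probes were dim, RT1-DMa being the exception. Of the 13, 7 were not fitted: those for RT1-DOa and RT1-DOb, both for RT1-Ba, and 1 each for RT1-Bb, RT1-Da and RT1-Db1. All 6 fitted class II probes were higher in hypoxia, with changes of 0.41 to 1.67; RT1-DMa was the smallest, was not called with slide as a block (adjusted p = 0.200) and turned to -0.10 with spike-in scaling. RT1-Bb, a class II beta chain, had log2 scaled signals of -1.70, -2.01 and -1.97 in hypoxia, against -3.64, -4.07 and -2.96 in normoxia. Cd74 rose by 0.34 (adjusted p = 0.0450), a call lost with slide as a block (adjusted p = 0.266), and was at -0.18 with spike-in scaling. Ciita had -4.90, -4.96 and -5.74 in hypoxia, against -3.19, -4.46 and -3.09 in normoxia. It was above background on 2 of 3 hypoxia arrays and 3 of 3 normoxia arrays and entered the fit through normoxia alone, so its fitted change of -1.62 (adjusted p = 0.0344) is given as a description. With normexp background correction, none of the 6 class II probes was called in hypoxia.

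Markers of leukocytes and antigen-presenting cells were measured beside class II. Of 16 listed genes, 15 had a probe and 10 were fitted. Of the 10, 6 were higher and 1 lower in hypoxia, where 34.6% of all fitted probes were higher and 29.7% lower. The summed signal of the list, relative to the 75th percentile, was 4.79 to 5.05 in hypoxia with quercetin, 6.75 to 7.06 in hypoxia and 5.69 to 6.57 in normoxia. Lyz2, lysozyme, rose by 4.10, and Cd83, a surface protein of activated dendritic cells, by 1.63, while the monocyte marker Cd14 fell by 0.95. Cd14 had the highest signal of the list in normoxia, with a mean of 1.82, and a mean of 0.87 in hypoxia. The leukocyte antigen Ptprc had 3 probes, of which none was above background on all arrays, and Itgam and Cd3e were not above background on any array. Of 6 epithelial markers, the keratins Krt7, Krt8 and Krt18 were fitted, and all 3 were higher. Epcam, Cdh1 and Krt19 were not above background on any array. The summed signal of the list was 7.50 to 9.07 in hypoxia with quercetin, 40.4 to 47.9 in hypoxia and 3.75 to 5.53 in normoxia. Krt7 had the highest signal of the list, with a mean of 5.23 in hypoxia against 2.61 for the brighter Krt18 probe. Smooth muscle markers summed to 121 to 145 in hypoxia with quercetin, 380 to 402 in hypoxia and 169 to 294 in normoxia. Of 7 fibroblast markers, 2 were higher and 3 lower in hypoxia, among them Dcn at -4.24 and Lum at -3.62. Dcn was above background on 2 of 3 arrays in hypoxia and with quercetin, so the size of its change is uncertain. Col1a1 went the other way, with a mean of 9.07 in hypoxia against 8.33 in normoxia for its brightest probe. With quercetin, 1 marker was higher and 6 lower than in normoxia, where 22.8% of all fitted probes were higher and 21.8% lower. The fibroblast list summed to 988 to 1160 in hypoxia with quercetin, 1338 to 1572 in hypoxia and 949 to 1031 in normoxia. The part of all these markers in the results was not tested.

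The second comparison adds quercetin to hypoxia. Most processing and class II probes were lower with quercetin, with Ciita and RT1-Bb not called, while class I heavy chain probes stayed within a narrow range of their hypoxia values. Of the 50 fitted probes, 4 were higher and 15 lower, or 8% and 30%, where 27.3% of all fitted probes were higher, 31.3% lower and 58.7% called. With quantile normalization 9 were higher and 16 lower, and without normoxia replicate 2, 12 and 16. The arrays did not overlap for 31 of the 50, and for 71.1% of all probes. The share called lower was thus near that of all probes, and the share called in either direction was below it. Median changes were 0.00 for the 50 and -0.06 for all fitted probes.

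Of the 30 class I and other RT1 probes, 28 were not called, 1 was higher and 1 lower. The 28 changed by -0.35 to 0.36, and the 95% interval of each lay within -0.89 to 0.93, so a change of 1 log2 unit was outside every one of them. For 10 of the 30, every quercetin array lay above every hypoxia array, and for 2 below. The same held for 8656 and 10288 of all 26656 probes, so the first share is near that of all probes. The fit pools the spread of all 9 arrays, including normoxia replicate 2. Of the uncalled probes that changed upward, all but 1 B2m probe were class I. Most higher calls gained without normoxia replicate 2 or with quantile normalization were therefore class I. Not called thus does not mean unchanged. RT1-A2 probe A_44_P184753 had log2 scaled signals of 4.59, 4.48 and 4.68 with quercetin, against 4.63, 4.54 and 4.58 in hypoxia. RT1-CE2 had 4.55, 4.47 and 4.62 with quercetin, against 4.59, 4.51 and 4.53 in hypoxia. For both genes the arrays of the groups were interleaved.

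RT1-T24-1, a nonclassical class I gene, was the 1 that fell. It had -4.25, -4.39 and -4.12 with quercetin, against -2.82, -2.81 and -2.73 in hypoxia, a change of -1.47 ± 0.25 (SE, n = 3 each; adjusted p = 0.00123). It was above background on 2 of 3 quercetin arrays. RT1-N3 rose by 0.41, with -0.67, -0.77 and -0.60 with quercetin against -1.06, -1.15 and -1.06 in hypoxia (adjusted p = 0.00330). RT1-M3-1, also lower in hypoxia than in normoxia, changed by 0.28 with quercetin and was not called (adjusted p = 0.0639).

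**Figure D3:**
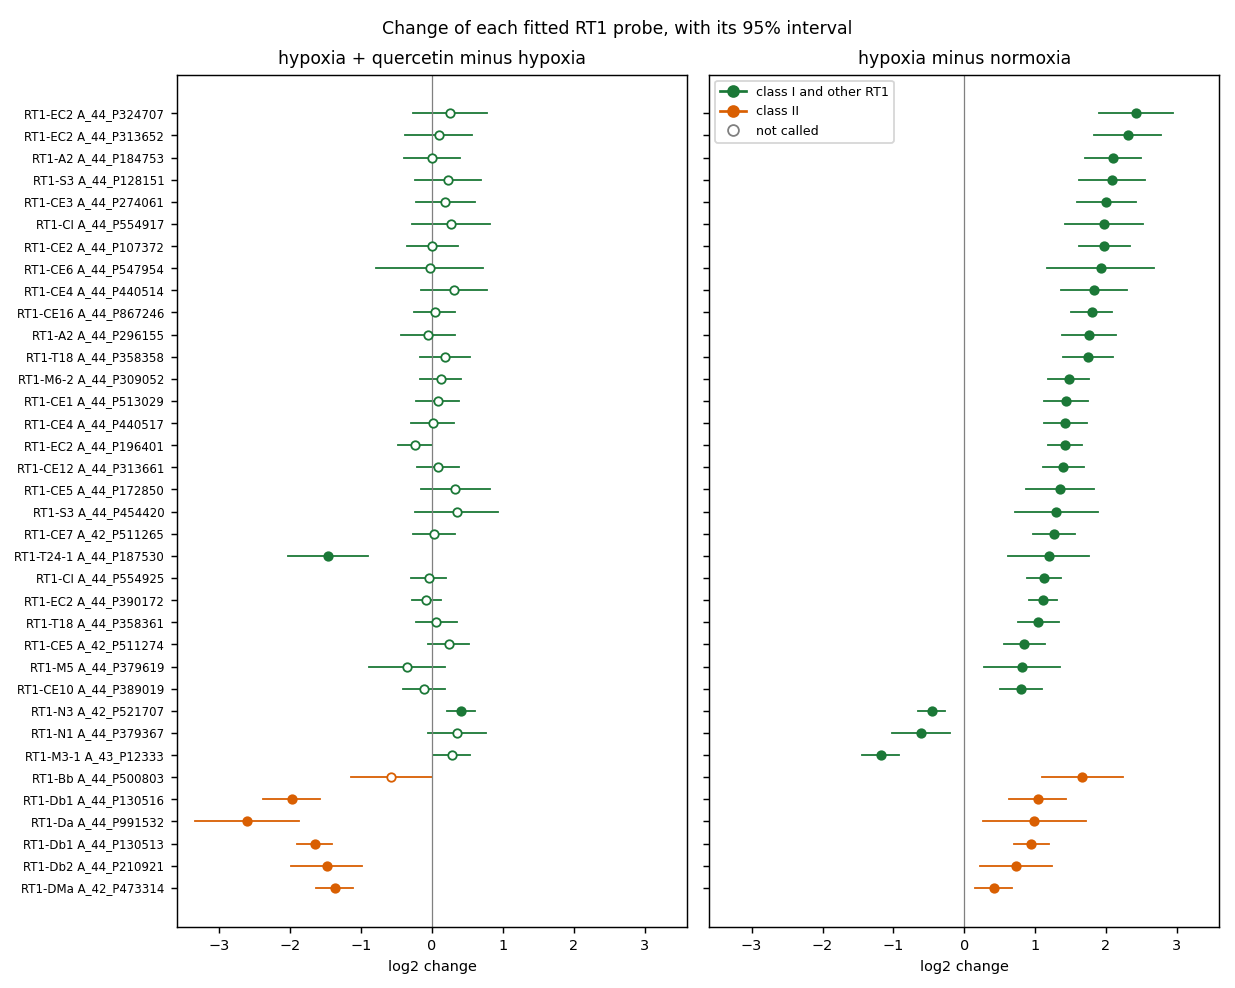
Change of each fitted RT1 probe in log2 units with its 95% interval, for hypoxia with quercetin minus hypoxia (left) and hypoxia minus normoxia (right); green marks class I and other RT1 genes, orange class II, and open circles probes that were not called. On the left the class I probes lie around 0 apart from RT1-T24-1, and 5 of the 6 class II probes were called lower; on the right 33 of the 36 probes were called higher.

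Of the 6 fitted class II probes, 5 fell with quercetin. RT1-DMa encodes a chain of the DM complex, which exchanges peptides on class II. It had log2 scaled signals of 0.30, 0.48 and 0.31 with quercetin, against 1.83, 1.68 and 1.70 in hypoxia, a change of -1.37 ± 0.11 (SE, n = 3 each; adjusted p = 2.98e-05). RT1-Db1 probe A_44_P130513 had -3.09, -2.98 and -3.08 with quercetin, against -1.41, -1.45 and -1.32 in hypoxia, a change of -1.66. Its second fitted probe changed by -1.98, and the changes of the pair did not pass as different (adjusted p = 0.0898).

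RT1-Da, the alpha chain that pairs with RT1-Db1, changed by -2.61, with -4.39, -5.90 and -5.43 with quercetin against -2.62, -2.67 and -2.59 in hypoxia. It was above background on 1 of 3 quercetin arrays, so the size of this difference is uncertain. RT1-Db2 changed by -1.49 and was above background on 2 of 3. RT1-Bb changed by -0.58 and was not called (adjusted p = 0.0765). With normexp background correction 1 of the 6 class II probes was called lower. Cd74 had -1.74, -1.35 and -1.37 with quercetin, against 0.17, 0.02 and 0.03 in hypoxia, a change of -1.56 (adjusted p = 2.92e-05). Ciita changed by -1.07, with an interval of -2.37 to 0.24, and was above background on 1 of 3 quercetin arrays. Of the leukocyte markers, 2 were higher and 4 lower, with Cd68 and Cd80 (1.57) higher, and Cd83 at -1.48 and Lyz2 at -1.65.

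All 8 probes of the proteasome, its activator and the transporter with tapasin were lower with quercetin. Psmb8 had log2 scaled signals of -1.42, -1.22 and -1.40 with quercetin, against 1.75, 1.72 and 1.58 in hypoxia, a change of -3.03 ± 0.16 (SE, n = 3 each; adjusted p = 4.72e-06). Psmb9 had 0.63, 0.46 and 0.57 with quercetin, against 2.76, 2.67 and 2.67 in hypoxia, a change of -2.15. Psmb10 changed by -0.76 (adjusted p = 0.0104). In all 3 subunits every quercetin array lay below every hypoxia array.

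Tap2 had -1.25, -1.25 and -1.07 with quercetin, against 0.48, 0.21 and 0.62 in hypoxia, a change of -1.63 (adjusted p = 5.94e-05). Tapbp changed by -1.49 and Tap1 by -1.24. The activator subunit Psme1 fell by 1.00 and Psme2 by 0.94, with 1.98, 2.17 and 2.06 for Psme1 with quercetin against 3.13, 3.07 and 3.02 in hypoxia. The changes of the 8 genes ranged from -3.03 for Psmb8 to -0.76 for Psmb10.

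**Figure D4:**
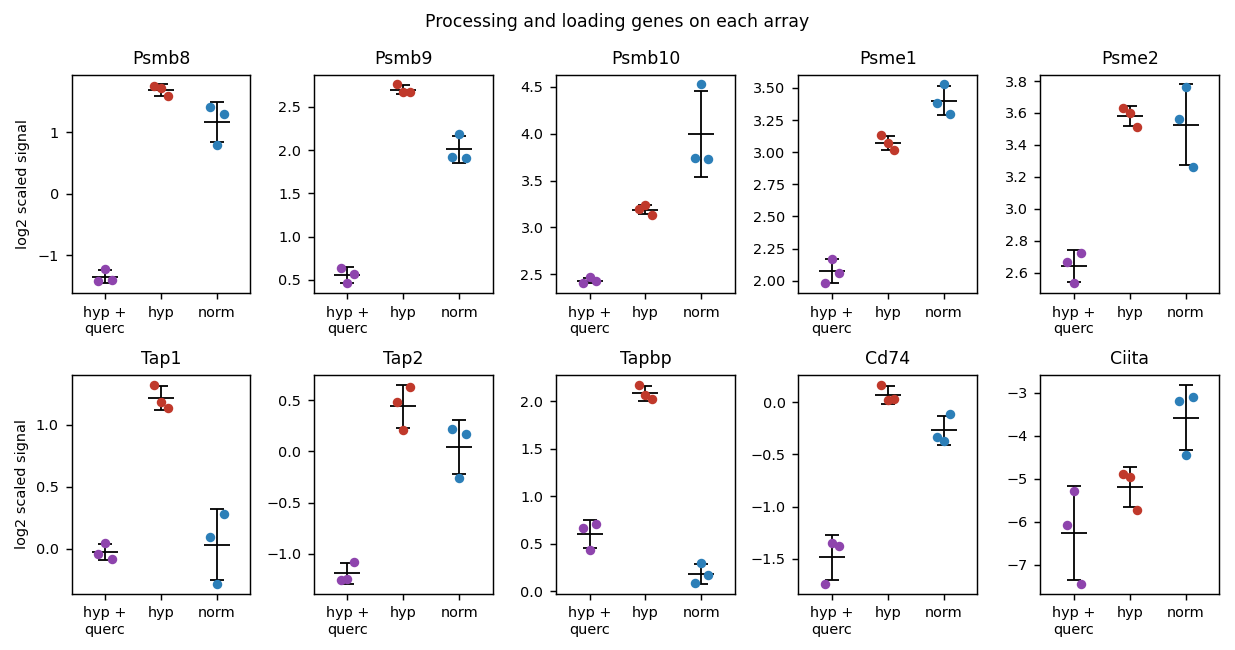
Log2 scaled signal of 10 processing and loading genes on each array, for hypoxia with quercetin, hypoxia and normoxia; points are arrays, bars the mean and SD of 3 arrays, and each panel has its own scale. Apart from Ciita, the quercetin arrays lie below all hypoxia arrays in every panel.

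B2m was the exception in direction. Downstream probe A_44_P122632 had log2 scaled signals of 3.35, 3.39 and 3.31 with quercetin, against 2.05, 2.06 and 2.18 in hypoxia, a change of 1.25 ± 0.09 (SE, n = 3 each; adjusted p = 1.29e-05). A_44_P535612 changed by 1.17. The upstream probes changed by 0.26 for A_43_P11442 (adjusted p = 0.0359) and 0.25 for A_44_P214040, which was not called (adjusted p = 0.0510). A_44_P122632 rose by 1.00 more than A_44_P214040 (adjusted p = 1.56e-05). Over all RT1 and B2m pairs, 3 of 13 differed, where 28% of all pairs did; without normoxia replicate 2 or without quercetin replicate 2 it was 5. The third pair was RT1-CE4 (adjusted p = 0.0436).

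The inducible subunits replace the constitutive subunits Psmb5, Psmb6 and Psmb7, so the difference of the log2 signals within each array was compared. Psmb8 minus Psmb5 was -6.03, -5.97 and -6.11 with quercetin, -3.19, -3.17 and -3.32 in hypoxia and -3.90, -4.67 and -3.88 in normoxia. Psmb9 minus Psmb6 was -2.57, -2.76 and -2.66 with quercetin, -0.62, -0.65 and -0.57 in hypoxia and -1.59, -1.76 and -1.49 in normoxia. Both differences were thus lowest with quercetin and highest in hypoxia. Psmb10 minus Psmb7 was -1.27, -1.37 and -1.21 with quercetin, -0.94, -0.77 and -0.83 in hypoxia and 0.20, 0.73 and 0.15 in normoxia.

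For quercetin against hypoxia the mean differences moved by -2.81 for Psmb8, -2.05 for Psmb9 and -0.43 for Psmb10. For hypoxia against normoxia they moved by 0.93, 1.00 and -1.21. No groups overlapped, and each exact two-sided permutation test over samples gave p = 0.1, the smallest that 3 against 3 allows, so none can reach 0.05. These values do not show the absolute ratio of the proteins or transcripts, because probes differ in their response.

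**Figure D5:**
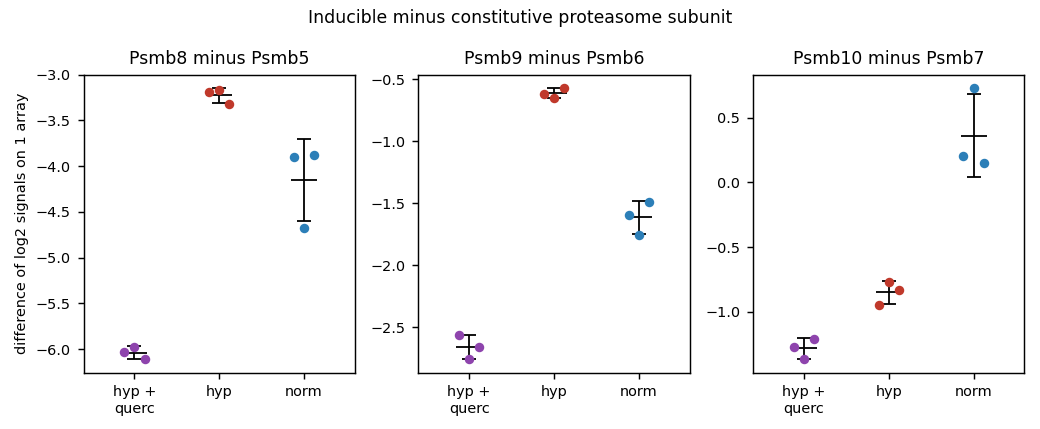
Difference of the log2 signals of an inducible proteasome subunit and its constitutive counterpart on each array; points are arrays, bars the mean and SD of 3 arrays, and each panel has its own scale. Psmb8 and Psmb9 lie lowest with quercetin and highest in hypoxia, and Psmb10 lies highest in normoxia.

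The third comparison sets hypoxia with quercetin against normoxia and shares its arrays with the other comparisons, so the values are given side by side. Of the 50 fitted probes, 27 were higher and 16 lower, where 22.8% of all probes were higher, 21.8% lower and 44.6% called. The arrays did not overlap for 44, and for 53.5% of all probes. Of the 30 class I probes, 25 were higher and 1, RT1-M3-1, was lower. Of the 50, 26 were called higher in hypoxia, not called between quercetin and hypoxia, and higher with quercetin than in normoxia. The class II probe RT1-Bb is among them. How many of all fitted probes had this pattern was not counted, and not called does not mean unchanged. RT1-A2 probe A_44_P184753 changed by 2.09 and RT1-EC2 probe A_44_P324707 by 2.67. Of the 13 pairs of probes of 1 gene, 8 differed in this change, where 13.2% of all pairs did.

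Of the 8 processing and loading genes, 6 were below normoxia with quercetin, Tapbp was above it and Tap1 was not called. Psmb8 changed by -2.51, Psmb9 by -1.45, Psmb10 by -1.57, Tap2 by -1.23, Psme1 by -1.33, Psme2 by -0.89 and Cd74 by -1.22. Tap1 changed by -0.06 and Tapbp by 0.42 (adjusted p = 0.0119). Of 6 class II probes, 5 were below normoxia and RT1-Bb was above it at 1.09. The fitted change of Ciita was -2.68, a description for the reason given above, with 1 of 3 quercetin arrays above background. Of B2m, the upstream probes were lower, at -0.32 and -0.36, and the downstream probes were not called, at -0.14 and -0.15. With scan day as a block, where normoxia replicate 3 shares the day, 33 of the 50 were called. This block does not separate quercetin from slide 3, which held no normoxia array. The calls lost were those of both upstream B2m probes, Tapbp, Psme2 (adjusted p = 0.0626), Ciita, RT1-Bb (0.49, adjusted p = 0.177), RT1-Da, RT1-Db2, RT1-CE6, RT1-CE10 and RT1-S3 probe A_44_P454420.

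Other genes of peptide loading did not follow the same order. For these lists and the markers, each gene stands by its fitted probe of highest signal. Of all fitted probes, 34.6% were higher and 29.7% lower in hypoxia, and 27.3% higher and 31.3% lower with quercetin against hypoxia. The chaperones and trimming enzymes of class I had 10 measured genes, 7 higher and 2 lower in hypoxia, and 2 higher and 4 lower with quercetin against hypoxia. The chaperone Hspa5 changed by 1.26 in hypoxia and -0.49 with quercetin, and the glycoprotein sensor Uggt1 by -1.19 and 1.63. The tapasin relative Tapbpl fell in both, by 1.20 and 0.76. Erap1, which trims peptides, changed by 0.33 and -0.78.

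The constitutive proteasome and its other activators, 17 measured genes, had 3 higher and 5 lower in hypoxia and 3 higher and 4 lower with quercetin. Psme3, which encodes another proteasome activator, changed by -1.60 in hypoxia and 1.40 with quercetin. Of 8 measured genes of class II processing, 7 were lower in hypoxia, among them the cathepsin genes Ctsb at -1.02 and Ctsh at -1.14. With quercetin 3 were higher and 1 lower, with Ctsb at 0.96 and Ifi30, a thiol reductase of endosomes, at -0.88.

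Regulators of these genes were read from the same fits. Of 12 measured genes of transcriptional control, 4 were higher and 5 lower in hypoxia, and 1 was higher and 6 lower with quercetin. Irf1, an interferon-induced activator of class I and Psmb9, changed by 0.80 in hypoxia (adjusted p = 0.00303) and -1.15 with quercetin (adjusted p = 0.000511). Of 10 measured genes of the interferon gamma receptor pathway, 3 were higher and 3 lower in hypoxia. With quercetin against hypoxia, 1 was higher and 5 lower, among them Jak2 at -1.06 and Ifngr2 at -0.82. Ptpn11 went the other way, with 4.63, 4.80 and 4.67 with quercetin against 3.98, 3.99 and 3.96 in hypoxia.

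Promoters of all listed genes with a sequence were searched for short motifs, whichever way the genes moved. RefSeq sequences of GRCr8 matched 38 of the 45 genes, and the 250 bases before each start were searched on both strands. The core of the interferon-stimulated element, GAAA, any 2 bases and GAAA, was present in 8 of 38, or 21.1%, against 3.35% of 27457 promoters: B2m, Psmb10, Psme2, RT1-N3, RT1-S3, Tap1, Tap2 and Tapbp. The interferon gamma-activated site core TTCNNNGAA was present in 2, or 5.26%, against 7.57%. The CCAAT box was present in 24, or 63.2%, against 34.2%, and the hypoxia element core ACGTG in 4, or 10.5%, against 16.9%. Most of the 38 promoters belong to related RT1 genes and are not independent of each other, so the shares are descriptive and no test of enrichment. A match describes the letters and no binding.

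The genes with the GAAA repeat did not share a direction: with quercetin against hypoxia, Tap1, Tap2, Tapbp, Psme2 and Psmb10 fell and 3 of 4 B2m probes rose. Psmb8 and Psmb9 had no match to the repeat in this window. Psmb9 and Tap1 lie head to head on chromosome 20, with starts 457 bases apart. The Tap1 match begins 121 bases before the Tap1 start, so it lies between both starts but outside the window searched for Psmb9. The upstream sequences of 3 genes with a match and of Psmb9 are printed 5′ to 3′ on the strand of each gene, with the matches to the GAAA repeat or its reverse complement in capitals.
Tap1, chr20:4668544-4668793, minus strand: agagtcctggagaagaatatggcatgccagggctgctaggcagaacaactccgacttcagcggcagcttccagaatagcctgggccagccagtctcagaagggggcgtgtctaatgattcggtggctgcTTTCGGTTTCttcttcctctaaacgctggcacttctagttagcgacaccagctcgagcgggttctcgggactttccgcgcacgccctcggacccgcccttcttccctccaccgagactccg
Tapbp, chr20:4967878-4968127, minus strand: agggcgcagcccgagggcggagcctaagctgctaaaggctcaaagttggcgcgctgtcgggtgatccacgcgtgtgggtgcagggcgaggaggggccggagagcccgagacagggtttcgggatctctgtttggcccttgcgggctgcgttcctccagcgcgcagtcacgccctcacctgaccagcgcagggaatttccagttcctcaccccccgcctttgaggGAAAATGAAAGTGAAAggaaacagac
B2m, chr3:129549080-129549329, plus strand: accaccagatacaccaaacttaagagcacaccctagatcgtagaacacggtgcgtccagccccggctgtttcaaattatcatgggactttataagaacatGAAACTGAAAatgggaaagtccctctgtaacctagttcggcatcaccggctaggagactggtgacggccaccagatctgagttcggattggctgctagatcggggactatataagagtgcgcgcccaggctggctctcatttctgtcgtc
Psmb9, chr20:4668750-4668999, plus strand: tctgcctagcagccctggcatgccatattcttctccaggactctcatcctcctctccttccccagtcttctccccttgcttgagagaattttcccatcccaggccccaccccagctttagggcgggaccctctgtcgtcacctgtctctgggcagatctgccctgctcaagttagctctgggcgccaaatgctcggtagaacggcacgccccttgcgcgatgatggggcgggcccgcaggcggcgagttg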

How the data were processed

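The 9 arrays were 1-colour, 3 per group. Per the file headers, spot intensities came from Agilent Feature Extraction 10.7.3.1 and were deposited with background already subtracted. The labels describe a microRNA labelling kit, while the headers name a gene expression protocol, so the labelling chemistry is uncertain. The authors' deposited value table holds log2 values with a median of 5.72 in every column; it was used as an alternative. How it was made is not stated in the labels.

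Control spots (1639) were left out and outlier spots (71 to 148 an array) set missing. The log2 intensity was averaged over spots of a probe, and the 75th percentile over probes was subtracted on each array. Probes were kept if every array of any group had them well above background, 26656 or 65% of them. One limma fit of group means (limma 3.58.1, R 4.3.3) had 6 residual degrees of freedom and a prior of 2.34. All tests were two-sided, with p-values adjusted by Benjamini-Hochberg. Of all probes, 18028 were named by accession in a RefSeq table of GRCr8, and 53 of the 63.

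On simulated data with 200 changed probes of 26656, 2-fold changes were recovered at 71.6% for hypoxia against normoxia and 68.7% for quercetin against hypoxia, with 3.68% and 4.76% of calls false. For 1.5-fold changes recovery was 31.3% and 16.4%. Far more probes were called in the data, 64.3% and 58.7% of those fitted, so these rates may not carry over. The members and lists were chosen with earlier results of these data known. Named genes were every probe outside RT1, up to 18 RT1 probes with the smallest adjusted p, and up to 4 genes of each list per comparison, not all of which are printed; markers were the defining genes and up to 3 per list. RT1 probes beyond these are named where probes of 1 gene disagree or where a count singles them out, after their values were seen. The number of arrays limits the precision. Alternatives were other scalings, normexp correction, other filters, the deposited table, slide or scan day as a block, a replicate block and leaving out each array.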

Additional observations from a re-analysis of the deposited data

How the results depend on the processing

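Under median scaling, quantile normalization and the deposited table, 47 of the 50 probes were called in hypoxia against normoxia (48 as reported), and the count of 43 for quercetin against normoxia did not move. Spike-in scaling moved the median of all probes by -0.43 in hypoxia against normoxia, where 29 were higher and 11 lower, 24 of the class I increases among them. It turned 3 directions: RT1-DMa to -0.10 and Cd74 to -0.18 in hypoxia against normoxia, and Tapbp to -0.0024 in quercetin against normoxia. With normexp background correction 33, 12 and 32 probes were called in the 3 comparisons, against 48, 19 and 43, and RT1-Db2 turned to 0.10 in quercetin against normoxia; probes of 1 gene differed in 6 pairs for hypoxia against normoxia (10 as reported) and in 4 for quercetin against normoxia (8 as reported). The cause was not tested. Leaving out 1 array gave 42 to 48 calls for hypoxia against normoxia, 18 to 28 for quercetin against hypoxia and 41 to 43 for quercetin against normoxia, and 9 to 11, 2 to 5 and 7 to 8 differing pairs. Slide as a block left 39 calls in hypoxia against normoxia. A replicate block gave 47, 18 and 42 calls. Same-numbered arrays did not deviate together (correlations of -0.27 to 0.02), which cannot show whether the samples were paired. Dim class II probes, the paralogy of class I and the single slide of the quercetin arrays limit these results.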

Other observations

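Genes related to these outside RT1 also differed. Of 5 measured class I relatives, 4 were below normoxia with quercetin and none above, where 21.8% of all fitted probes were lower and 22.8% higher. Among the 4, Hfe was dim, at -5.68, -6.83 and -6.29 with quercetin. Procr, the protein C receptor, changed by -2.12 in quercetin against hypoxia (adjusted p = 1.88e-05), after 0.59 in hypoxia against normoxia. Cd1d1, which presents lipids, changed by -0.83 in quercetin against hypoxia and by -2.33 in quercetin against normoxia. Fcgrt, the neonatal receptor for immunoglobulin G, changed by -0.95 in quercetin against hypoxia and 0.67 in hypoxia against normoxia.

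Of 7 measured surface ligands that co-stimulate or restrain T cells, 5 fell and 1 rose in quercetin against hypoxia. Of all fitted probes, 31.3% fell and 27.3% rose. Cd40 changed by -2.16 and Icam1, an adhesion molecule, by -1.19, after 0.83 and 0.50 in hypoxia against normoxia. Cd80, a ligand of CD28, was the 1 that rose, at 1.57, and was not called in hypoxia against normoxia (adjusted p = 0.106). Cd276 changed by -0.89 and -1.29.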
